A study of Mus musculus with 6 samples.

Results

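The adrenomedullin, apelin and endothelin systems were examined through 10 genes in HL-1 cells. This mouse line, established from an atrial tumour, keeps many features of cardiomyocytes in culture, and it was kept for 8 hours at 1% oxygen (hypoxia, 3 arrays) or at 21% oxygen (normoxia, 3 arrays). The 10 genes were the peptide precursors Adm, Apln and Edn1, the receptors Calcrl, Aplnr, Ednra and Ednrb, and the receptor partners Ramp1, Ramp2 and Ramp3. All probe sets that the platform annotation gives to these symbols were taken, on all 6 arrays. They came to 17 probe sets of 9 genes, out of 45037 probe sets in all, and a further 2 probe sets are annotated to both Ramp2 and its neighbour Vps25. Ednra was not analysed here. Both groups are the same line, so every value describes 1 line in culture. The labels do not say whether the 3 samples of a group came from separate cultures. The p-values below therefore cover the spread among these arrays alone, and that spread may be technical.

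Adrenomedullin is a secreted peptide that dilates vessels and raises cyclic AMP in its target cells. It acts on the calcitonin receptor-like receptor, encoded by Calcrl, which reaches the cell surface only together with a RAMP protein: RAMP2 or RAMP3 make it an adrenomedullin receptor and RAMP1 a receptor for calcitonin gene-related peptide. Apelin, encoded by Apln, also dilates vessels and raises cardiac contractility through its receptor APLNR. Endothelin-1, encoded by Edn1, is a strong vasoconstrictor that acts on cardiomyocytes and smooth muscle largely through EDNRA, while EDNRB also clears the peptide. Adm and Apln are known targets of the hypoxia-inducible factors (HIF), which bind DNA at a short core with the letters ACGTG or GCGTG.

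Promoter sequences from RefSeq (GRCm38.p6, 250 bases before to 50 after the transcription start) were found for 8 of the 10 genes. Those of Adm and Apln are shown because both genes were higher in hypoxia. That of Ednrb is shown because 1 of its 3 probe sets was called lower, and that of Edn1 as the third ligand. They lie at chr7:110627407-110627706 on the plus strand (Adm), chrX:48034804-48035103 on the minus strand (Apln), chr13:42301226-42301525 on the plus strand (Edn1) and chr14:103843652-103843951 on the minus strand (Ednrb). Each is written 5′ to 3′ on the gene's own strand, with capitals marking ACGTG or GCGTG read on either strand, so that a core on the other strand reads CACGT or CACGC.
Adm: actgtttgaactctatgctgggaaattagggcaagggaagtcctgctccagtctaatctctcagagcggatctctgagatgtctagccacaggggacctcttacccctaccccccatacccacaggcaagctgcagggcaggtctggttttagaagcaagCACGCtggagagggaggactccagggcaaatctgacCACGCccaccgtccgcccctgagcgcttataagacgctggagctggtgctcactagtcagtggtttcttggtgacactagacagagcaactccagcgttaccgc
Apln: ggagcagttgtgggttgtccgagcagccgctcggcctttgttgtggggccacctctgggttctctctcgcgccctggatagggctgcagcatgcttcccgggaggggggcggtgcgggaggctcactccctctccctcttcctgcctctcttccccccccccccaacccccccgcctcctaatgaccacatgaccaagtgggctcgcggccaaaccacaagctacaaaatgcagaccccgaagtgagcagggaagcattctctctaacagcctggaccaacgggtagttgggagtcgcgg
Edn1: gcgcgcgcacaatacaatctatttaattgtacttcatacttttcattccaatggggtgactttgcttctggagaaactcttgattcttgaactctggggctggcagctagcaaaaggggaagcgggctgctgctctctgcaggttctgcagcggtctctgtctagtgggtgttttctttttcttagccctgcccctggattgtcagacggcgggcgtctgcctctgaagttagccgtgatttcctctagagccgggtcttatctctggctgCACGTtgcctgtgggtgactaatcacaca
Ednrb: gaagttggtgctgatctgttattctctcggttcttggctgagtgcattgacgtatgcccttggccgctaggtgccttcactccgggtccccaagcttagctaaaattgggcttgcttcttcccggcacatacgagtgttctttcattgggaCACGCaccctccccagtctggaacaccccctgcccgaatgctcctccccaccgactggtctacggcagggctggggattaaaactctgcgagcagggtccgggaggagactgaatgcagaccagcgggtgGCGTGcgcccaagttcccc
The Adm promoter held 2 copies of GCGTG, both on the other strand, at -90 to -86 and -54 to -50 from the start. No copy of either core was in the Apln window. Edn1 had 1 copy of ACGTG at 22 to 26 past the start, and Ednrb 2 copies of GCGTG, at -99 to -95 and at 32 to 36. Among all 32851 promoters of this length, 19.6% held ACGTG, 32.4% GCGTG and 43.8% at least 1 of the 2, against 5 of the 8 members. A match is only a match of letters, and more distant regulatory sequence was not examined.

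**Figure D1:**
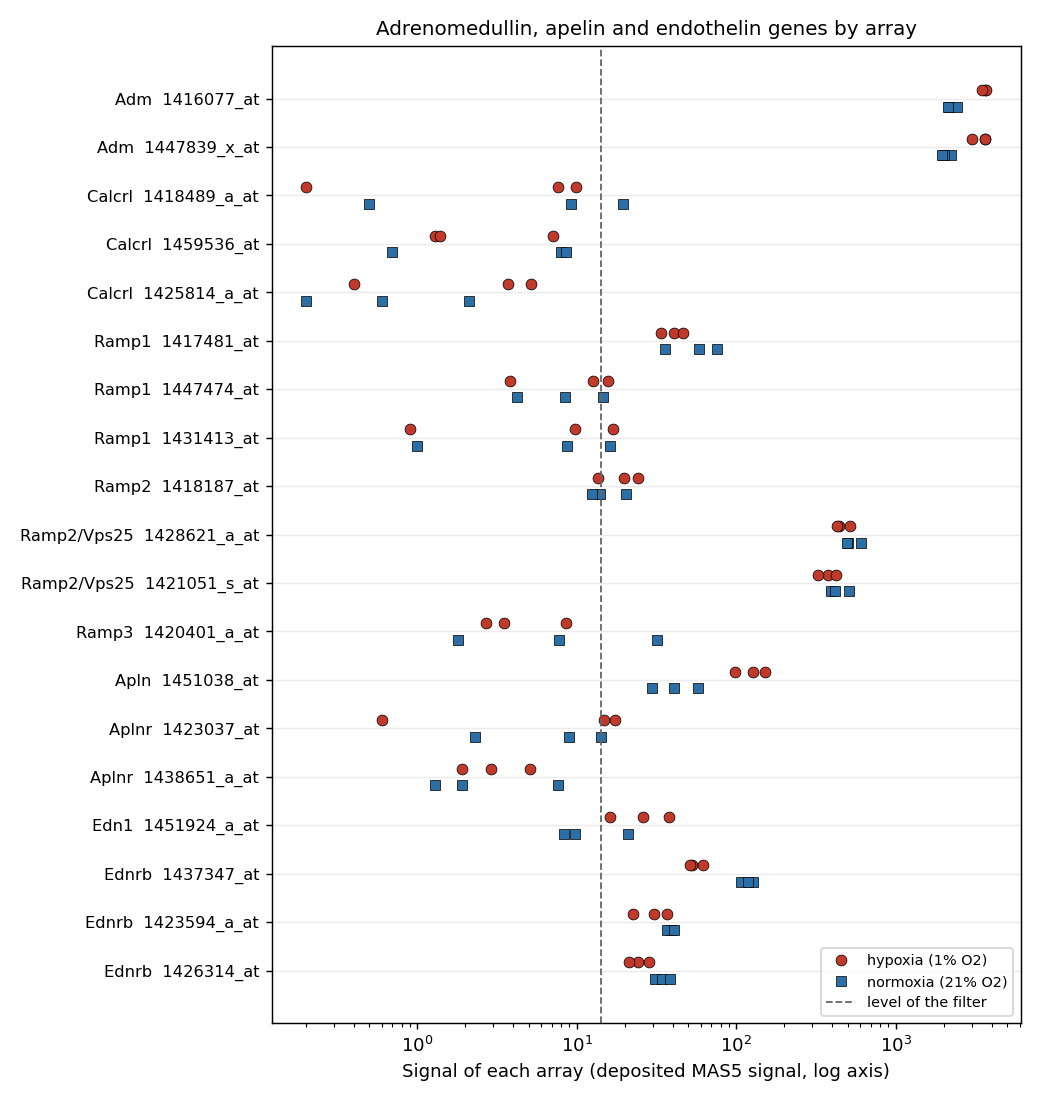
Deposited signal of each array (horizontal, log axis) for every probe set of the 3 systems (rows), with hypoxia as red circles above normoxia as blue squares; the dashed line is the level of the filter, a geometric mean signal of 14.1. Adm lies at signals of 1942 or more on all arrays, while the Calcrl, Ramp3 and Aplnr probe sets lie mostly left of the line.

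Precursors of both vasodilator peptides rose in hypoxia, while 1 of the 3 probe sets of the endothelin receptor Ednrb passed as lower. Those of Calcrl and Aplnr, the receptors of adrenomedullin and apelin, lay below the signals at which genes were tested. Probe sets were tested where their geometric mean signal over the 6 arrays was above 14.1, the median of all probe sets, which kept 9 of the 17. These 9 belonged to 6 genes, Adm, Apln, Edn1, Ednrb, Ramp1 and Ramp2. At an adjusted p under 0.05 (limma, Benjamini-Hochberg over all 22518 probe sets kept), 3 of the 9 were higher in hypoxia and 1 was lower. Of all probe sets tested, 0.608% passed, 0.533% higher and 0.0755% lower. Adm, with both of its probe sets, Apln and Ednrb were known from earlier results of these data to pass. The counts therefore do not measure an enrichment. Of the 4 calls, 0 were left without hypoxia replicate 1 or without normoxia replicate 3 (limma, with 5 and 4 of the 9 at an unadjusted p under 0.05), 1 without hypoxia replicate 2, 2 without normoxia replicate 2, 3 without hypoxia replicate 3 and all 4 without normoxia replicate 1. The 3 arrays of hypoxia did not overlap the 3 of normoxia in 5 of the 9, and in 16.5% of all probe sets tested. With 3 arrays in each group the smallest p of an exact permutation test is 0.1, and each call therefore rests on the spread that limma shares across probe sets.

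Among the ligands, Adm was measured by a pair of probe sets, and both rose. The brighter probe set (1416077_at) gave 3627, 3713 and 3488 in hypoxia and 2173, 2425 and 2119.9 in normoxia. All hypoxia arrays lay above all normoxia arrays, and the means were 3610 ± 114 in hypoxia and 2239 ± 163 in normoxia (± gives the SD of 3 arrays here and below). The rise was 1.61-fold, or 0.69 on the log2 scale (SE 0.09, 95% interval 0.48 to 0.90, limma adjusted p = 0.0124). The other Adm probe set (1447839_x_at) gave 3612, 3021 and 3632 in hypoxia and 2229, 2001 and 1942 in normoxia, again without overlap. It rose 1.66-fold, by 0.73 on the log2 scale (SE 0.11, limma adjusted p = 0.0185; not passed without hypoxia replicate 1 at 0.142, without normoxia replicate 2 at 0.075 and without normoxia replicate 3 at 0.122). The difference between the changes of the 2 probe sets was -0.04 on the log2 scale, with overlapping arrays (exact permutation test, two-sided, p = 0.8, or 0.8 adjusted over 4 such differences). By size of change Adm ranked 72 of the 75 genes called higher in hypoxia. The brighter probe set lost its call when hypoxia replicate 1 (limma adjusted p = 0.104), hypoxia replicate 2 (0.0684) or normoxia replicate 3 (0.0907) was left out, although its log2 fold change stayed between 0.65 and 0.75 in all 6 fits that left out 1 array.

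Apln had 1 probe set (1451038_at), with 151, 127 and 99 in hypoxia and 40.6, 57.6 and 29.7 in normoxia. The lowest hypoxia array was above the highest normoxia array, and in both groups all 3 arrays were above the level of the filter. Mean signals were 126 ± 25.9 in hypoxia and 42.6 ± 14.1 in normoxia, a 3.01-fold rise (log2 fold change 1.59, SE 0.27, 95% interval 0.98 to 2.20, limma adjusted p = 0.0356). Among the 75 genes called higher it ranked 26 by size. The log2 fold change of Apln exceeded that of Adm by 0.90, with no overlap of the arrays in the log ratio of the 2 genes (exact permutation test, two-sided, p = 0.1, the smallest possible, or 0.133 adjusted over 4 differences). The call of Apln was lost with hypoxia replicate 1 left out (limma adjusted p = 0.218), and likewise for hypoxia replicate 2 (0.137) and for normoxia replicate 3 (0.143), with log2 fold changes of 1.45, 1.57 and 1.36.

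Edn1 did not pass. Its probe set (1451924_a_at) gave 16.1, 26.2 and 37.7 in hypoxia and 9.8, 20.9 and 8.3 in normoxia, so that the highest normoxia array lay above the lowest hypoxia array. The means of 26.7 ± 10.8 in hypoxia and 13.0 ± 6.88 in normoxia gave a log2 fold change of 1.08 (SE 0.50, 95% interval -0.04 to 2.19, limma adjusted p = 0.476). Of the normoxia arrays 2 were below the level of the filter and of the hypoxia arrays 0, so the probe set was tested partly through its hypoxia signals. Over the 16 alternatives that gave a value, the log2 fold change of Edn1 stayed above 0, from 0.78 to 1.48, and the adjusted p lay between 0.311 and 0.797. The interval takes in both no change and a change as large as that of Apln.

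Among the receptors, Ednrb was above the filter on all 3 of its probe sets. All 3 had a log2 fold change below 0, and 1 of them passed. The brightest (1437347_at) gave 61.7, 52.6 and 51.2 in hypoxia and 107, 128 and 118 in normoxia. It fell by 1.10 on the log2 scale (SE 0.18, 95% interval -1.51 to -0.69, limma adjusted p = 0.0303), with means of 55.2 ± 5.70 in hypoxia and 118 ± 10.6 in normoxia. It ranked 5 by size among the 10 genes called lower. The probe set 1426314_at gave 28.4, 24.2 and 21.4 in hypoxia and 31.1, 34.3 and 38.4 in normoxia. These arrays did not overlap either, but the change of -0.49 on the log2 scale did not pass (SE 0.28, limma adjusted p = 0.561). In 1423594_a_at, with 30.5, 22.4 and 36.8 in hypoxia and 38.9, 36.7 and 40.9 in normoxia, the groups overlapped narrowly and the log2 fold change was -0.41 (SE 0.27, limma adjusted p = 0.633). The log2 fold change of the brightest probe set minus that of 1426314_at was -0.60, and minus that of 1423594_a_at it was -0.69. For each difference the arrays did not overlap (exact permutation test, two-sided, p = 0.1, the smallest possible, or 0.133 adjusted over 4 differences). When its 3 probe sets were averaged, Ednrb had a value of -0.66 on the log2 scale without passing (limma adjusted p = 0.191). The brightest probe set passed in 1 of the 6 fits that left out 1 array, the one without normoxia replicate 1 (limma adjusted p = 0.0377); without hypoxia replicate 1 it was 0.116, without hypoxia replicate 2 0.118, without hypoxia replicate 3 0.0678, without normoxia replicate 2 0.151 and without normoxia replicate 3 0.176. It also missed the threshold after centring each array on its median (limma adjusted p = 0.064) and with the replicate number as a block (0.0978). Without the trend of variance on mean signal it missed the threshold as well (limma adjusted p = 0.0996), as did Adm and Apln (0.194 and 0.143). All 3 probe sets were below 0 in each of the 16 alternatives that gave them a value.

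**Figure D2:**
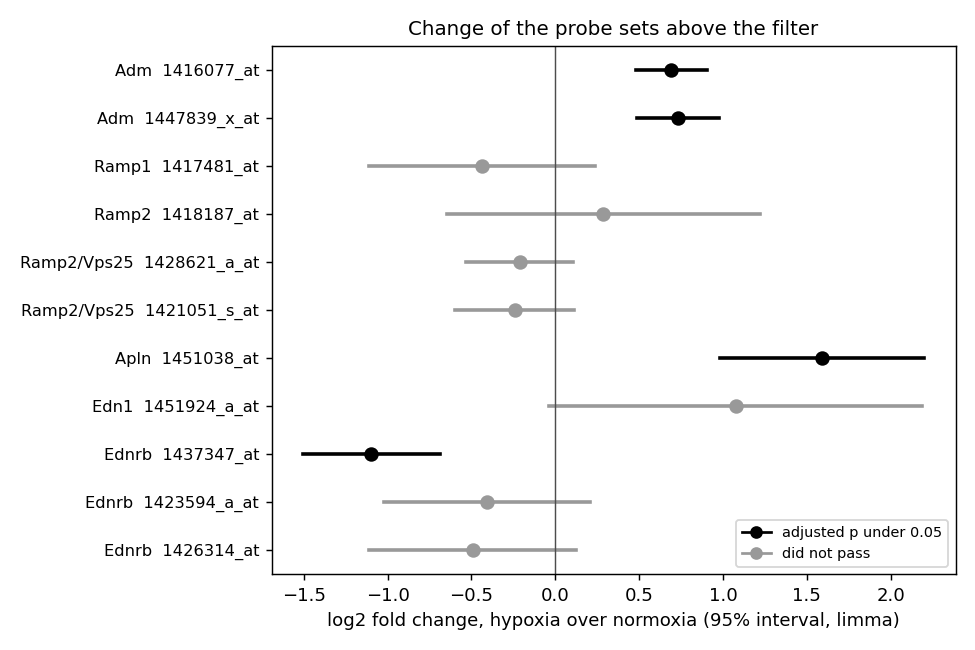
log2 fold change of hypoxia over normoxia (horizontal) with its 95% interval from limma for each probe set above the filter, black where the adjusted p was under 0.05 and grey otherwise. The intervals of both Adm probe sets and of Apln lie right of 0. All 3 Ednrb points lie left of 0, but only 1 of their intervals does so entirely. The intervals of Edn1, Ramp1, Ramp2 and the other Ednrb probe sets include 0.

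Calcrl, the receptor that adrenomedullin and calcitonin gene-related peptide share, was not tested, since its 3 probe sets were below the filter. The brightest of them gave 0.2, 9.9 and 7.6 in hypoxia and 0.5, 9.2 and 19.4 in normoxia. The other two gave 0.4 to 7.1 in hypoxia and 0.2 to 8.6 in normoxia. The groups overlapped in all 3, and without a filter the limma adjusted p ranged from 0.779 to 0.932. The 95% interval of the brightest probe set then ran from -4.52 to 2.80 on the log2 scale, so a several-fold change in either direction was not detectable at these signals. The apelin receptor Aplnr was similar, with 0.6, 17.4 and 14.8 in hypoxia and 9.0, 14.3 and 2.3 in normoxia on 1 probe set, and 1.9, 5.1 and 2.9 in hypoxia and 1.3, 1.9 and 7.6 in normoxia on the other. Its probe sets had adjusted p-values of 0.971 and 0.977 without a filter. The median signal of a whole array lay between 15 and 19.

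The RAMP partners, which set the ligand preference and surface transport of the Calcrl product, gave no call. Ramp1 was measured by 1 of its 3 probe sets (1417481_at), with 40.6, 46.6 and 33.8 in hypoxia and 35.7, 58.3 and 76.3 in normoxia. The log2 fold change was -0.44 with a 95% interval of -1.11 to 0.24 (limma adjusted p = 0.638), and the groups overlapped. The other two Ramp1 probe sets lay between 0.9 and 16.8 on all arrays. Ramp2 had 24.1, 19.7 and 13.6 in hypoxia and 14.0, 20.3 and 12.5 in normoxia on the probe set that carries its symbol alone. These signals straddled the level of the filter, and the log2 fold change was 0.29 (95% interval -0.65 to 1.22, limma adjusted p = 0.836). The probe sets annotated to both Ramp2 and Vps25, an endosomal sorting gene, were well above the filter. On 1428621_a_at the signals were 442, 432 and 518 in hypoxia and 610, 504.5 and 498 in normoxia, and on 1421051_s_at 376, 324 and 421 in hypoxia and 512, 395 and 419.9 in normoxia. Their log2 fold changes of -0.21 and -0.24 did not pass (limma adjusted p = 0.633 and 0.622), and neither level can be assigned to Ramp2. Ramp3 had 2.7, 3.5 and 8.6 in hypoxia and 7.8, 32.1 and 1.8 in normoxia, below the filter, and its highest value came from normoxia replicate 2 alone.

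The other genes of these systems were read from 4 lists of pathway genes, with 1 probe set per gene. Of 55 measured genes in the 4 lists, 1 was higher in hypoxia and 0 were lower (limma, with 3 genes at an unadjusted p under 0.05). The higher gene was Gipr, which was tested only through its hypoxia signals, as given below. Of all 11332 genes tested, 0.75% passed, 0.662% higher and 0.0882% lower. The median log2 fold change of the 55 genes was -0.06, against -0.04 over all genes tested. Among ligands and peptide processing genes 7 of 19 listed were measured, with 0 called and a median of -0.30. Pam, the enzyme that amidates adrenomedullin at its C terminus, had a log2 fold change of -0.01 (127 ± 55 in hypoxia and 122 ± 25.4 in normoxia, limma adjusted p = 0.993). Cpe, a carboxypeptidase that trims peptide precursors, was the brightest of the list at 4200 ± 614 in hypoxia and 3513 ± 421 in normoxia (log2 fold change 0.25, limma adjusted p = 0.518). Ece1, the main endothelin-converting enzyme, lay below the filter with 3.80 ± 2.72 in hypoxia and 7.90 ± 9.65 in normoxia. Ece2, a related enzyme, had 105 ± 20.5 in hypoxia and 133 ± 20.7 in normoxia (log2 fold change -0.35, limma adjusted p = 0.582). The alternative ligands Adm2, Apela and Edn2 were all under the filter.

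Among related receptors and partners, 1 of the 5 measured genes was called, Gipr, the receptor of the incretin GIP and like Calcrl a receptor of the secretin family. It gave 95.8, 53.5 and 37.2 in hypoxia and 5.7, 12.8 and 9.5 in normoxia, and passed at a limma adjusted p = 0.0303. All 3 normoxia arrays lay below the level of the filter and 0 of the hypoxia arrays. Gipr was therefore tested only through its hypoxia signals, and no fold change is given in the text. With hypoxia replicate 1, hypoxia replicate 2 or normoxia replicate 3 left out, Gipr did not pass (limma adjusted p = 0.215, 0.127 and 0.106). Ackr3, an atypical receptor that scavenges adrenomedullin, lay below the filter with signals of 1.2 to 5.2 in hypoxia and 0.5 to 10 in normoxia. In the list of G proteins, arrestins and effectors, through which these receptors signal, 0 of 32 measured genes were called and the median was -0.03. Gnas, the stimulatory G protein that couples the adrenomedullin receptor to cyclic AMP, was the brightest, at 3125 ± 742 in hypoxia and 3269 ± 816 in normoxia (log2 fold change -0.06, limma adjusted p = 0.94). Among other vasoactive systems, 0 of 11 measured genes were called and the median was -0.18. Gucy1a1, a subunit of the nitric oxide receptor guanylate cyclase and the brightest of that list, had 1580 ± 103 in hypoxia and 1884 ± 148 in normoxia (log2 fold change -0.25, limma adjusted p = 0.434). For comparison, 12 of 14 known hypoxia-induced genes were higher in hypoxia and 0 lower, with a median of 1.40. The exceptions were Vegfa and Car9 (limma adjusted p = 0.0924 and 0.678). This list, like the others, was chosen with earlier results of these data known, so it is not an independent standard.

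**Figure D3:**
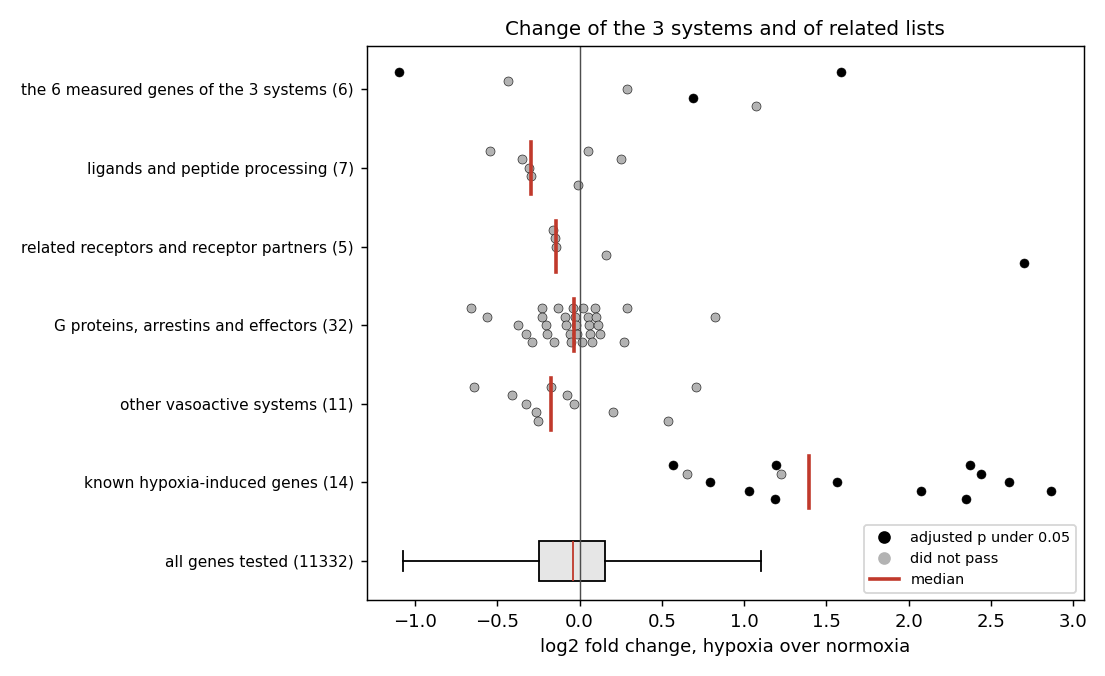
log2 fold change of hypoxia over normoxia (horizontal) for the 6 measured genes of the 3 systems, for 5 lists and for all 11332 genes tested; each point is a gene, black where the adjusted p was under 0.05, red bars are medians (none is drawn for the 6 genes), and the box shows the quartiles with whiskers at the percentiles 1 and 99. The medians of the 4 pathway lists lie between -0.30 and -0.03, while the known hypoxia-induced genes lie at 0.57 or above. The black point among the related receptors is Gipr, whose position rests on normoxia signals below the level of the filter.

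Genes whose pattern over the 6 arrays was closest to each called member were found by the root mean square difference of log2 signals, each centred on its own mean, over all 11332 genes tested. These distances describe 6 arrays that share the contrast of hypoxia with normoxia. Closest to Adm were the RNA-binding protein gene Celf2 (distance 0.05), Jmy (0.07), a p53 cofactor and actin nucleator, and the ubiquitin ligase gene Rnf169 (0.07). Their log2 fold changes were 0.63, 0.64 and 0.60, and none of the 3 passed (limma adjusted p = 0.0826, 0.139 and 0.208). Closest to Apln were Kdelr3 (0.17), a receptor that returns proteins to the endoplasmic reticulum, Abhd18 (0.17) and the endoplasmic reticulum oxidase gene Ero1a (0.22), which all passed with log2 fold changes of 1.70, 1.59 and 1.64 (limma adjusted p = 0.0112, 0.0125 and 0.0076). Kdelr3 and Abhd18 lost their calls with hypoxia replicate 1 (0.0889 and 0.115), hypoxia replicate 2 (0.0596 and 0.0638) or normoxia replicate 3 (0.0722 and 0.067) left out, and Ero1a with normoxia replicate 3 left out (0.0572). Closest to Ednrb were the glutamate transporter gene Slc1a3 (0.06), the iron exporter gene Slc40a1 (0.11) and Cyp2j6 (0.12), a cytochrome P450. Of these Slc40a1 passed (log2 fold change -1.22, limma adjusted p = 0.00894, or 0.077 without normoxia replicate 3), while Slc1a3 had -1.08 and Cyp2j6 -0.95 (limma adjusted p = 0.0534 and 0.0851).

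**Figure D4:**
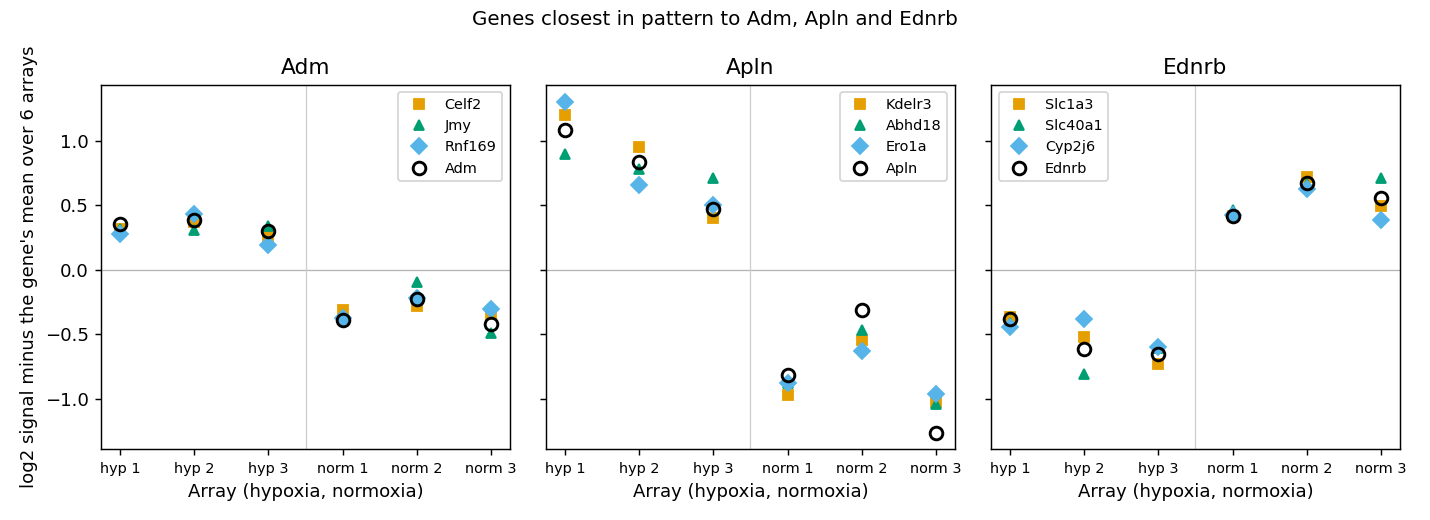
log2 signal minus each gene's mean over the 6 arrays (vertical) by array, hypoxia left of normoxia, for Adm, Apln and Ednrb (open circles) and the 3 genes closest to each (filled symbols). The spread between arrays of a group is smallest in the Adm panel, where the distances are 0.05 to 0.07, and largest in the Apln panel, where they are 0.17 to 0.22.

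Because adrenomedullin, apelin and endothelin genes are also active in endothelial and smooth muscle cells, markers of other cell types were read on the same arrays. In cultures measured as a whole, a change in the share of cells of a type and a change in RNA per cell cannot be told apart. The summed signal of 7 cardiomyocyte markers was 29375 to 31979 in hypoxia and 29629 to 31458 in normoxia, with 0 of 7 called. Without overlap, Nppa was higher in hypoxia, at 1308 ± 260 against 790.5 ± 276 in normoxia (log2 fold change 0.76, limma adjusted p = 0.24). Myl4 was lower, also without overlap, at 4763 ± 224 in hypoxia and 5175 ± 200 in normoxia (-0.12, limma adjusted p = 0.639). The groups overlapped in the other cardiomyocyte markers. Of 8 endothelial markers 2 were above the filter, Kdr and Egfl7, and 0 were called. The sum of all 8 was 288 to 348 in hypoxia and 213 to 252 in normoxia, without overlap. The largest part of that sum was Egfl7, at 198 ± 71.3 in hypoxia and 117 ± 17.2 in normoxia. Its arrays did not overlap, as in 16.5% of all probe sets tested (log2 fold change 0.70, limma adjusted p = 0.352). Kdr overlapped, at 72.8 ± 25.8 in hypoxia and 63.5 ± 12.9 in normoxia (0.16, limma adjusted p = 0.864). The 6 under the filter, Pecam1, Cdh5, Tek, Tie1, Cldn5 and Emcn, had group means between 0.633 and 15.3. Of 7 smooth muscle and pericyte markers, 4 were above the filter and 1, the adhesion molecule gene Mcam, rose (583 ± 70.9 in hypoxia and 325.5 ± 13.5 in normoxia, log2 fold change 0.83, limma adjusted p = 0.03). Mcam did not pass when an array was dropped from hypoxia (limma adjusted p = 0.149 for replicate 1 and 0.127 for replicate 2) or from normoxia (0.121 for replicate 2 and 0.144 for replicate 3). The sum of these 7 was 12684 to 15615 in hypoxia and 11641 to 13560 in normoxia, overlapping and most of it Acta2 and Tagln. All 4 measured markers had a log2 fold change above 0, with a median of 0.43 against -0.04 over all genes tested. Tagln had 4195 ± 545 in hypoxia and 3241 ± 308 in normoxia (log2 fold change 0.37, limma adjusted p = 0.283) and Cnn1 366 ± 82.9 in hypoxia and 257 ± 10.9 in normoxia (0.49, limma adjusted p = 0.347), and in both the hypoxia arrays lay above all normoxia arrays without passing. Myh11, Rgs5 and Cspg4 were under the filter, and the groups overlapped in each. Myh11, which defines mature smooth muscle, averaged 5.77 in hypoxia and 1.70 in normoxia (limma adjusted p = 0.747 without a filter). Rgs5 and Cspg4 went the other way without a filter, with log2 fold changes of -0.38 and -0.26 (limma adjusted p = 0.951 and 0.969). Of 6 fibroblast markers 3 were above the filter and 0 were called, with sums of 118 to 231 in hypoxia and 135 to 140 in normoxia. The part of other cell types in the changes of Adm, Apln and Ednrb was not tested.

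**Figure D5:**
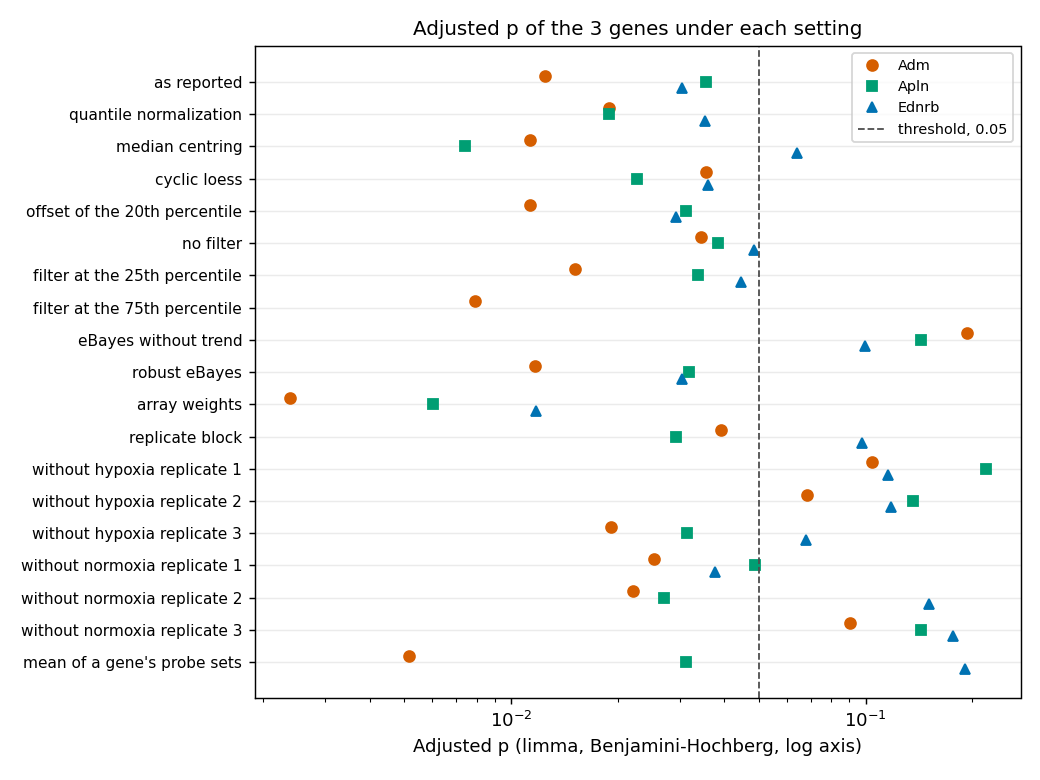
Adjusted p of Adm, Apln and Ednrb (horizontal, log axis) under the reported setting and each alternative (rows), with the threshold of 0.05 as a dashed line. Points of all 3 genes lie right of the line without the variance trend and with hypoxia replicate 1, hypoxia replicate 2 or normoxia replicate 3 left out; Apln and Ednrb have no value with the filter at the 75th percentile.

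The plot of adjusted p by setting leaves out the fold threshold, which changes the call rule and not the p. Of the alternatives shown that gave a value, the call of Adm was kept in 14 of 18, that of Apln in 13 of 17 and that of Ednrb in 8 of 17. When a change of at least 1 log2 was also required, Adm was not called on either probe set, while Apln and Ednrb were.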

How the data were processed

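RNA of 6 HL-1 samples was hybridised to Affymetrix mouse arrays, 1 sample per array in a single colour. The values are linear signal intensities, deposited as 1 number for every probe set on every array and made by the authors with MAS5 per the submitters' processing notes; for its version and settings, not given in the sources used here, no assumption was made. Means trimmed by 2% at both ends were all 99.5, so the arrays were not rescaled. No array was an exact copy of another. The number of arrays limits the precision, and detection calls were not used.

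Before the log2 transformation, 10 zeros were replaced by 0.1, the lowest positive signal. Probe sets above the median of mean log2 signal were fitted with limma 3.58.1 in R 4.3.3 (trend on mean signal, two-sided, no covariate), and p-values were adjusted by Benjamini-Hochberg over all probe sets kept. The procedure was also run on simulated data with normal noise and changes of at least 1 log2. That is larger than the change of Adm, so the run does not bear on changes of that size. Names came from a platform annotation dated 2016; gene IDs looked up in RefSeq changed 0 symbols. A gene was represented by its brightest kept probe set with 1 symbol. The text names all members, each list's called genes or its brightest one, Pam, Ece1 and Ackr3, and the 3 genes closest in pattern. For the known hypoxia-induced genes and the markers only counts, sums and a few genes are given. Adm2, Apela, Edn2, Ece2, Vegfa, Car9, the endothelial markers, Nppa, Myl4, Acta2, Tagln, Cnn1, Myh11, Rgs5 and Cspg4 were named after their values were seen. The members and lists were chosen with earlier results of these data known. The array values carry no genome build; coordinates belong to the RefSeq promoters only.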

Additional observations from a re-analysis of the deposited data

How the results depend on the processing

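The alternatives changed the scaling (quantile, median centring or cyclic loess), the offset (2.9 added), the filter (none, or set at percentile 25 or 75), the variance model (no trend, or robust), the weights of the arrays, the pairing, the size of change required (1 log2), the value per gene (its probe sets averaged) or the arrays used (each left out in turn). Without the trend, limma called 18 probe sets in place of 137. In that fit 0 member probe sets and 0 pathway genes passed (6 and 4 at an unadjusted p under 0.05), with adjusted p = 0.194 for Adm, 0.143 for Apln and 0.0996 for Ednrb. Array weights gave 437 calls. The filter at percentile 75 left 2 member probe sets, both of Adm and both called, and 0 pathway genes called (limma, 2 at an unadjusted p under 0.05), and Apln and Ednrb had no value there. The fold threshold left 2 member probe sets, Apln and Ednrb. Median centring moved the median of all probe sets by 0.11 on the log2 scale, and Ednrb had an adjusted p of 0.064. The mean of its probe sets gave 0.191. Leaving out 1 array gave 39 to 200 probe sets called, 0 to 4 member probe sets and 0 to 1 pathway genes, with limma adjusted p of 0.0192 to 0.104 for Adm, 0.0269 to 0.218 for Apln and 0.0377 to 0.176 for Ednrb. No direction of Adm, Apln or Ednrb reversed in any of these fits. The cause of these differences was not tested. With the replicate number as a block, 105 probe sets and 3 member probe sets were called, and Ednrb had a limma adjusted p of 0.0978. In that fit 0 pathway genes passed (2 at an unadjusted p under 0.05, limma). Deviations of same-numbered arrays from their group means correlated at -0.08, 0.21 and -0.14 for numbers 1, 2 and 3. With 3 arrays per group these values cannot show whether the numbers pair the samples, and the labels do not say. Signals near or under the level of the filter limit what can be said of Calcrl, Aplnr, Ramp2, Ramp3 and Edn1.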
